A study of Mus musculus with 6 samples.

Results

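The vacuolar proton pump (V-ATPase) was described through 10 of its genes in the RPE/choroid, a preparation of the retinal pigment epithelium (RPE) and the blood vessel bed that feeds it. The genes were selected by name, with earlier results of these same data known, to set the d2 isoform of the pump, which is best known from macrophages and osteoclasts, beside subunits found in most cells. All 10 symbols had a row in the deposited table of 33924 gene symbols. The tissue came from C57BL/6J mice without any engineered allele or treatment, and 3 libraries each were made from young and from aged animals. The methods of the study give 2 eyes per sample. The sample labels give 1 to 2 months for the young mice, whereas the methods of the study give a higher range. The titles give 20 to 24 months for the aged mice and the time label gives 22 to 24 months. The labels give male sex throughout, but the study's methods name both sexes. Total RNA was sequenced with a stranded kit after ribosomal RNA removal and without poly(A) selection.

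The table holds 1 usable level per gene, the mean normalised read count over all 6 libraries (DESeq2's baseMean). Its other value columns are the authors' own comparison of the ages and were not used, so neither a young nor an aged level is given here and no age difference was tested. With equal numbers of libraries per age, the mean of either age lies between 0 and 2 times the deposited mean. No value per mouse was at hand, so no SD, interval or depth per library could be given, and no pair of levels below can be said to differ beyond the spread between mice. Means above 0 were listed for 26681 symbols, with a median of 82.1 normalised counts. In bulk tissue, fewer cells of a type and less RNA per cell cannot be told apart.

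The V-ATPase uses ATP to drive protons into lysosomes, endosomes, melanosomes and secretory vesicles, and in some cells across the plasma membrane. Its V1 sector sits in the cytosol and splits ATP, and its V0 sector lies in the membrane and carries the protons. Subunits A and B form the catalytic head, subunits C and H join or regulate the sectors, subunit a holds the proton half-channels, and subunit d couples the central stalk to the proton-carrying ring. The RPE depends on acid lysosomes to digest the outer segments that photoreceptors shed each day. Several subunits come in isoforms encoded by separate genes, some of them found in most tissues and others in few cell types.

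RefSeq promoter windows (GRCm38.p6, 250 bases before to 50 bases after the start) were found for 5 of the 10 members, namely Atp6v0a1, Atp6v0d1, Tcirg1, Atp6v1a and Atp6ap1, and for 25 of the 36 genes on the wider pump list. The other members were Atp6v0a2, Atp6v0d2, Atp6v1b2, Atp6v1c1 and Atp6v1h. Each window was searched on both strands for the letters TCACGTGA, the core of the CLEAR element bound by TFEB and related factors, which drive many lysosomal genes. These letters, which contain the shorter E-box CACGTG, were present in a window of 4 of the 25 genes, against 1.12% of all 27025 genes with at least 1 window (0.974% of all 32851 windows). The 30 bases around each match are shown in the direction of transcription, with the 8 matching bases in capitals. These 4 genes are shown because a window of each holds the letters, so that they share them follows from this choice.
Atp6v1a, minus strand, chr16:44139373-44139402: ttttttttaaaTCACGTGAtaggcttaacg
Atp6v0d1, minus strand, chr8:105566050-105566079: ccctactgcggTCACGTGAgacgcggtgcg
Atp6v0e, plus strand, chr17:26676387-26676416: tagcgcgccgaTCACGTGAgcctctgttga
Vma21, plus strand, chrX:71816694-71816723: ccgcgggtaagTCACGTGAgtgcttgcagc

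The match began 132 bases before the RefSeq start of Atp6v1a and 4 bases before that of Atp6v0d1. In Atp6v0e it began at base 3 after its RefSeq start, and in Vma21 53 bases before the second of its listed RefSeq starts. The annotated spans of Atp6v1a, Atp6v0e and Vma21 in GENCODE M21 begin further upstream, so that these 3 matches lie inside them, and the span of Atp6v0e begins at 26663231. The Atp6v0d1 match alone lies outside its span. The E-box occurred in 6 of the 25 genes, against 8.09% of all genes, and these were the same 4 genes together with Atp6v0b and Ccdc115. The letters GAGGAA, the core bound by the myeloid factor PU.1, occurred in 6 of the 25 genes, among them Atp6v0a1 and Tcirg1, against 31.3% of all genes. In Tcirg1 the letters GAGGAA occurred only in the window of the second of its listed RefSeq starts. The AP-1 letters TGANTCA occurred in Atp6v0a1 alone among the 25 genes, against 8.97% of all genes. The Atp6v0a1 window lies wholly inside the annotated span of that gene, which begins at 101009452. The GAGGAA match of Atp6v0a1 lies after its RefSeq start. Such matches describe these windows and show no binding.

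All 10 members were abundant transcripts. Their mean normalised read counts ran from 1088 for Tcirg1 to 9281 for Atp6v1a, an 8.53-fold range with a median of 2416, and 8 of the 10 stood in the top 10% of symbols with a mean above 0, which began at 1700. With symbols under a mean of 10 left out of the ranking, 5 of the 10 did so. By position they lay between the 83.9th and the 99.3rd percentile. The 2 members outside the top 10% were Atp6v0d2 and Tcirg1. Nearest to that limit were Atp6v0a2 at 1722 on the inside and Atp6v0d2 at 1577 on the outside.

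Among V1 members, Atp6v1a, which encodes the ATP-splitting A subunit, had the highest level, with a mean of 9281 normalised counts (rank 175). Atp6v1a lies on chromosome 16 at 44085402 to 44139705 (minus strand, GRCm38, GENCODE M21), with 15 exons in its longest coding transcript. Atp6v1b2, which encodes the B2 form of the other head subunit, had a mean of 3791 normalised counts (rank 810, chromosome 8 at 69088646 to 69113711). Atp6v1h, whose product regulates ATP splitting, had a mean of 2679 normalised counts (chromosome 1 at 5070018 to 5162529). Atp6v1c1, whose product links the stalks to the membrane sector, had a mean of 2194 normalised counts (chromosome 15 at 38661933 to 38692446).

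The methods of the study describe the normalised counts as transformed from TPM, a unit already divided by transcript length, and whether the deposited means still grow with length was not tested. Levels are therefore given as deposited and also per kb of the longest coding transcript, and where the deposited means are free of length, the values per kb correct for it a second time. On that scale Atp6v1a stood at 2192 normalised counts per kb, against 1342 for Atp6v1b2, 1308 for Atp6v1h and 1060 for Atp6v1c1. Atp6v1a thus led the V1 members on both scales, by 2.45-fold over Atp6v1b2 in counts and by 1.63-fold per kb.

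The membrane sector was represented by 3 forms of subunit a and both forms of subunit d. Atp6v0a1, the a1 form, known above all from neurons and also broadly expressed, had a mean of 2638 normalised counts (chromosome 11 at 101009452 to 101063719). Atp6v0a2, the a2 form found in the Golgi apparatus and endosomes, had a mean of 1722 normalised counts (chromosome 5 at 124628576 to 124724455). Tcirg1, which encodes the a3 form used by osteoclasts and found on lysosomes, had a mean of 1088 normalised counts and was the lowest of the 10 (chromosome 19 at 3896050 to 3907133). The a4 form of kidney and inner ear, Atp6v0a4, was not a member and stood at 44.8 normalised counts.

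As shares of the 4 summed a forms, Atp6v0a1 made up 48.0%, Atp6v0a2 31.4%, Tcirg1 19.8% and Atp6v0a4 0.816% of the normalised counts. Dividing by transcript length exchanged the middle ranks. Per kb of longest coding transcript, Tcirg1 held 26.5% and Atp6v0a2 23.8%, because the longest Atp6v0a2 transcript has 5345 bases and that of Tcirg1 has 3041. The order of these 2 isoforms therefore depended on the scale, while Atp6v0a1 held 48.0% and 48.7%.

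Atp6v0d1 and Atp6v0d2 encode the alternative forms of the d subunit. Atp6v0d1, the form of most tissues, had a mean of 1799 normalised counts (rank 2467, chromosome 8 at 105524465 to 105566047, minus strand, 8 exons). Atp6v0d2 had a mean of 1577 normalised counts (rank 2894, chromosome 4 at 19876841 to 19922605, minus strand, 8 exons). The d2 form thus made up 46.7% of the summed d counts. Per kb of longest coding transcript the values were 1105 for Atp6v0d1 and 621 for Atp6v0d2, and the d2 share was 36.0%.

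That pooled mean of 1577 does not show how Atp6v0d2 was divided between the ages. From that mean alone, with the authors' comparison of the ages not used, either age could lie anywhere from 0 to 3155 normalised counts. The pooled share of 46.7% could likewise be far from the share in young or in aged tissue alone. The same range for the mean of either age runs from 0 to 3598 for Atp6v0d1 and from 0 to 2175 for Tcirg1. The pooled values should be read as levels over the 6 libraries together.

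The plot of pump gene levels sets the members beside the rest of the list.

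**Figure D1:**
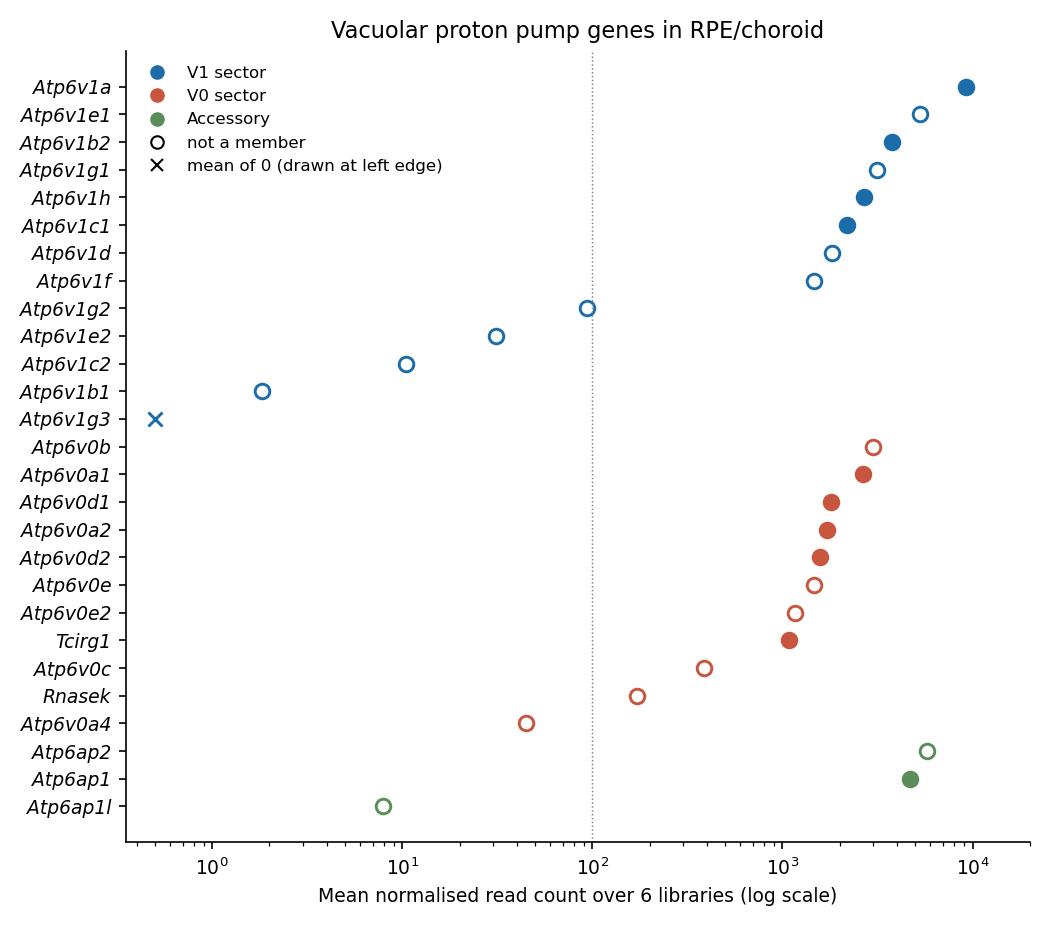
Each point is the mean normalised read count of 1 gene over the 6 libraries on a log axis, filled for the 10 members and open for other genes of the pump, coloured by sector, with no error bars because no value per library was used. All members lie above 1000, and 7 other genes lie under the dotted line at 100. Among these, Atp6v1g3 has a mean of 0, which a log axis cannot hold, and is drawn as a cross near the left edge.

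Subunits with isoform genes fell into 2 patterns in the pooled libraries. For 4 of the 7 such subunits (B, C, E and G), 1 isoform held nearly all counts and every other isoform was under 100. Atp6v1b2 held 99.95% of the B counts, with Atp6v1b1, the form of kidney intercalated cells, at 1.82 normalised counts. Atp6v1c1 held 99.5% of the C counts, with Atp6v1c2 at 10.5. The E and G subunits were not among the members, and there Atp6v1e1 held 99.4% and Atp6v1g1 97.1%, while the neuronal Atp6v1g2 stood at 93.1 and Atp6v1g3 was listed at 0.

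The subunits a, d and e, all of the membrane sector, had more than 1 isoform above 1000 normalised counts. Atp6v0e and Atp6v0e2 stood at 1468 and 1157, and per kb of longest coding transcript their order turned, with Atp6v0e2 at 55.3% of the sum. Of the 10 isoforms that were not the most abundant of their subunit, 6 were under 100, and the other 4 were Atp6v0a2, Tcirg1, Atp6v0d2 and Atp6v0e2. Of these 4, 3 are members, which were chosen with earlier results known, so their presence here is a description.

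**Figure D2:**
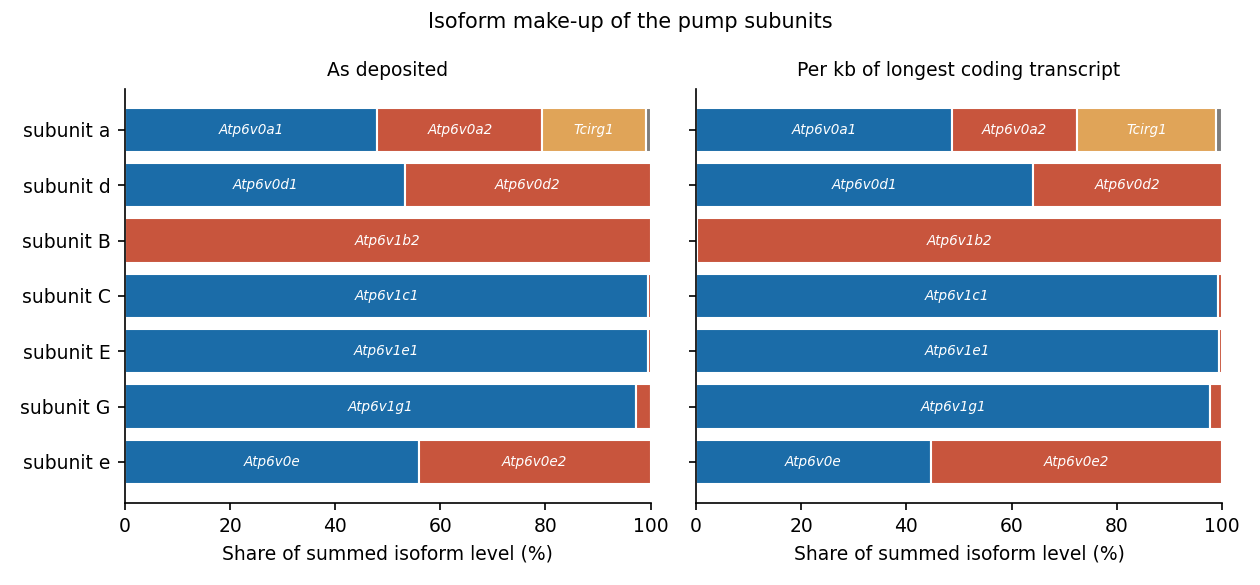
Bars give each isoform's share (%) of the summed level of its subunit, from mean normalised read counts as deposited (left) and per kb of the longest coding transcript (right). A single isoform fills the bars of B, C, E and G, whereas d2 takes 46.7% of the d counts and 36.0% per kb.

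Relative to Atp6v0d2, the members divided by scale. In normalised counts 8 of the 9 other members were higher, by 1.09-fold for Atp6v0a2 up to 5.88-fold for Atp6v1a, and Tcirg1 was lower at a ratio of 0.690. Of these 9, 4 (Atp6v0a2, Atp6v0d1, Atp6v1c1 and Tcirg1) were within 1.5-fold of it. Per kb of longest coding transcript, 7 were higher, and Atp6v0a2 joined Tcirg1 below it at a ratio of 0.519. Per kb of the longest annotated transcript, coding or not, 5 were higher, since Atp6v1c1 stood at a ratio of 0.717 and Atp6v1h at 0.893, against 1.71 and 2.10 per kb of coding transcript. These 2 genes have annotated transcripts of 4927 and 4829 bases, against 2071 and 2049 for their longest coding ones. Per kb of coding length, which leaves out the long untranslated ends of Atp6v0d2, 6 were higher, with Atp6v0a1 also lower at 0.698. Atp6v0d1 was the higher of the d forms on each scale, by 1.14-fold in counts, 1.78-fold per kb of either transcript and 1.14-fold per kb of coding length.

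**Figure D3:**
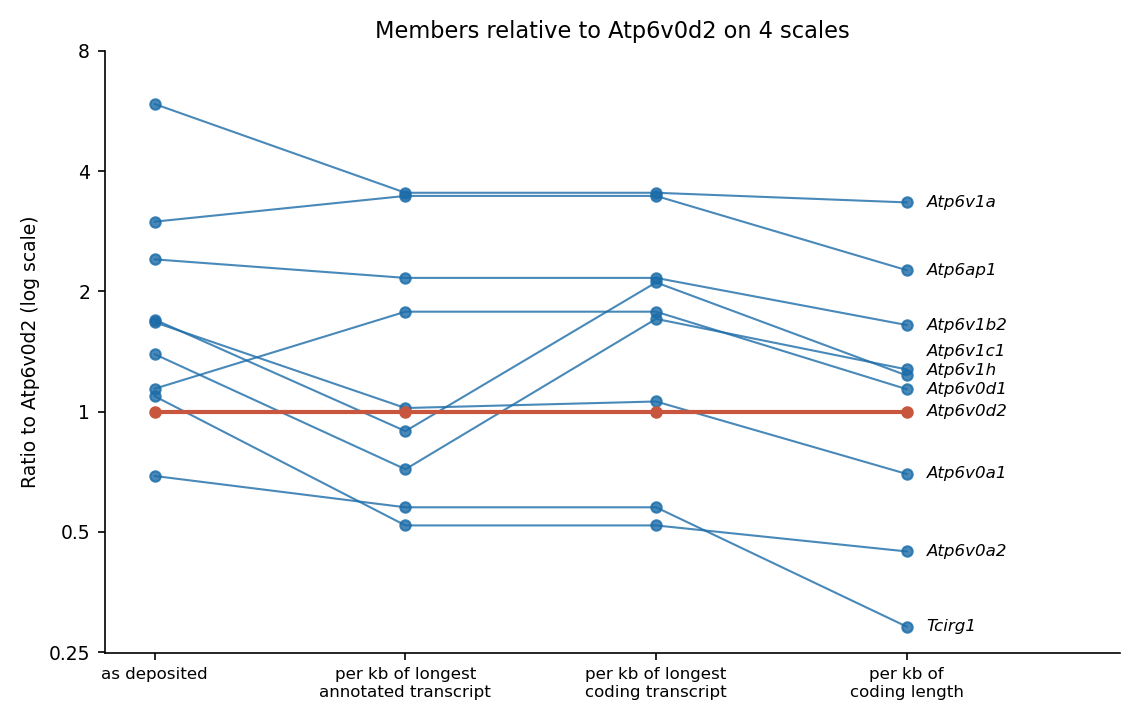
Lines join each member's level divided by that of Atp6v0d2 (log axis) on 4 scales, as deposited, per kb of the longest annotated transcript, per kb of the longest coding transcript and per kb of coding length. Atp6v1a stays highest at 5.88, 3.53, 3.53 and 3.34 times Atp6v0d2, while Atp6v0a1, Atp6v0a2, Atp6v1c1 and Atp6v1h lie above it on some scales and below it on others.

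Atp6ap1, an X-linked gene (74297097 to 74304721) whose product Ac45 helps assemble the pump and steer it to acid organelles, had the second highest level among the members, with a mean of 4712 normalised counts and 2153 per kb. Its partner Atp6ap2, the prorenin receptor, stood at 5755, and the related Atp6ap1l at 7.90. Among 9 assembly and regulatory genes on the list, levels ran from 269 for Rogdi to 7077 for Dmxl2. The remaining V1 and V0 genes with a single form included Atp6v0b at 2984, Atp6v1d at 1816, Atp6v1f at 1465 and Atp6v0c at 386 normalised counts. Atp6v0c encodes the repeated unit of the proton-carrying ring, and 88.1% of its 31-base words occur in no other gene, with 404 words shared with Atp6v0c-ps2. That share was 81.6% for Atp6v1f, 76.0% for Atp6v1g1, 35.5% for Rnasek and 81.0% for Ccdc115 among the assembly genes, so the levels of these 5 genes, and the G share above, are uncertain.

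Between 96.5% and 100% of each member's 31-base words occurred in no other annotated gene. The coding sequences of Atp6v0d1 (1053 bases) and Atp6v0d2 (1050 bases) were identical at 67.7% of 1040 aligned bases and shared 0 words of 31 bases. Atp6v0a1 and Tcirg1 were identical at 65.9% of aligned bases, Atp6v0a1 and Atp6v0a2 at 67.0%, and Atp6v0a2 and Tcirg1 at 68.3%, and these pairs also shared 0 words. Atp6v1b2 and Atp6v1b1 were identical at 76.5% of aligned bases and likewise shared 0 words. The lowest share of own words among the members was that of Atp6v1a, where 112 words recur in Gm18990.

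Markers of the tissue and of other cells were read on the same scale. Of 7 RPE markers, 6 had means over 10000 normalised counts, among them the retinoid isomerase Rpe65 at 43745, and the chloride channel gene Best1 stood at 69.8. Melanocyte and pigment genes (7838 to 89145 over 5 genes), fibroblast genes (5470 to 64562 over 5), rod photoreceptor genes (6487 to 48191 over 4), mural cell genes (3145 to 21346 over 4), endothelial genes (1025 to 6377 over 4) and Schwann cell genes (257 to 2214 over 3) were also listed. RPE cells make pigment too, so the pigment genes do not mark melanocytes alone. The part of any cell type in the pump levels was not tested.

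All 10 macrophage markers had a mean above 0, from 169 for Cd14 to 4063 for Csf1r, with a median of 1906. In counts 5 of the 10 were higher than Atp6v0d2, and 4 of these (Csf1r, Adgre1, C1qa and C1qb) were also higher per kb. Of 6 osteoclast markers, 4 were under 100 normalised counts. Ocstamp (3.72), Calcr (7.97) and Dcstamp (10.2), genes of osteoclast fusion and of the calcitonin receptor, lay between the 24.2nd and the 32.7th percentile of symbols above 0, and Mmp9 stood at 51.7. Acp5 and Ctsk, which other cells also use, stood at 338 and 1720, so that Ctsk was above Atp6v0d2 and the other 5 below it. Atp6v0d2 and Tcirg1 themselves are genes of osteoclasts as well as of macrophages, and their cell of origin was not tested.

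**Figure D4:**
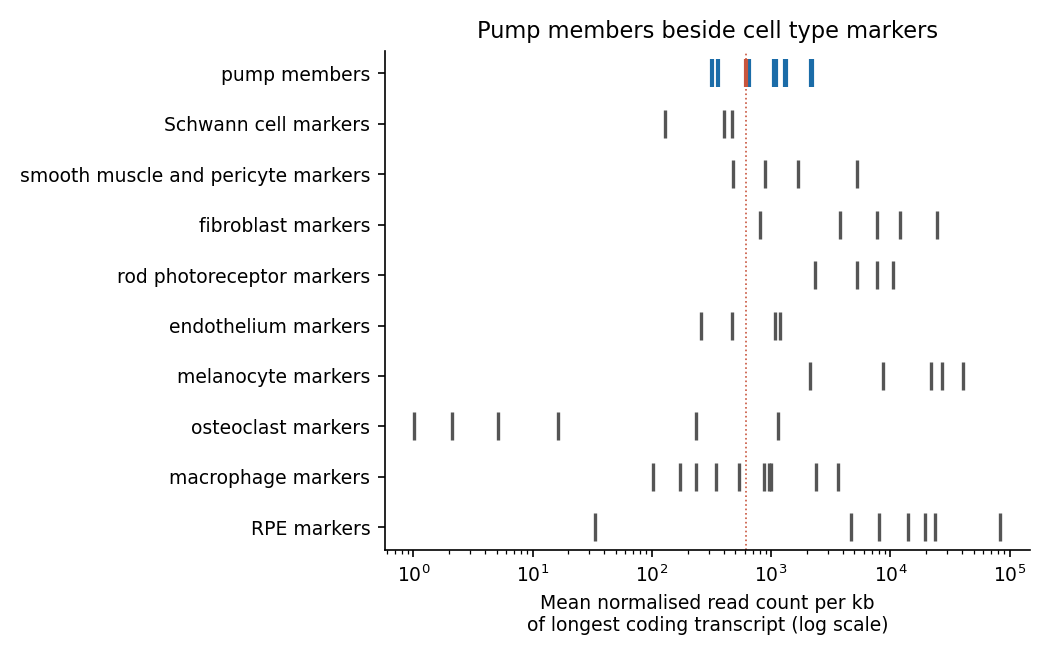
Ticks give the mean normalised read count per kb of longest coding transcript (log axis) of each marker in 9 cell type lists and of the 10 pump members, with Atp6v0d2 in red and its level as a dotted line at 621. Macrophage and osteoclast markers lie on both sides of the line, and Ctsk, at 1137, is the osteoclast marker to its right.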

How the data were processed

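Libraries from 3 young and 3 aged mice were analysed through 1 deposited table with 1 row per gene symbol. According to the methods of the study and the labels, the authors trimmed reads with BBDuk, mapped read pairs with STAR to GRCm38 transcripts (Ensembl release 82), estimated TPM with Sailfish 0.9.0, transformed these into normalised counts by total count and ran DESeq2. The signal used is the deposited baseMean, the authors' mean of normalised counts over all libraries. TPM values are already divided by length. Whether the deposited means still scale with length was not tested, so levels are shown with and without division by it. The other 5 value columns hold the authors' fold change, its standard error, Wald statistic, p and adjusted p between the ages. They were not used, and 0 columns held values of single samples. The planned test of age could therefore not be run.

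Means summed to 19192071, and 7243 symbols were at 0. Rank, share and ratio were computed in Python 3.11.15. Lengths, coordinates and 31-base words came from GENCODE M21, which shares the build of the study but not its release. Coding sequences were aligned globally with Biopython 1.88, tested on made sequences. Promoters came from RefSeq (GRCm38.p6). Genes named are the 10 members, then the 36-gene pump list and 9 marker lists. Members and lists were chosen with earlier results of these data known. For 3 markers an older symbol was matched. No self-made test across genes was run.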

Additional observations from a re-analysis of the deposited data

How the results depend on the processing

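The number of members in the top 10% by mean normalised count, 8 as reported, was 5 when only symbols with a mean of at least 10 were ranked, 9 with all symbols listed and 7 after division by the longest annotated transcript. Leaving out the symbols with a mean under 10 raises the level needed by construction. The ranking after division covered the 22862 symbols with an annotated length, against 26681 as reported, so its reference set changed together with the scale. The d2 share of the summed d counts, 46.7% as deposited, was 36.0% per longest annotated transcript, 36.0% per longest coding transcript and 46.8% per coding length, so d2 stayed the lower of the d forms on each. The coding transcript scale was chosen after seeing the data. No paired analysis was possible because single libraries have no values in the file used. The planned test of age, its alternatives, the replicate block and the fits without each library were not run on that account. The a isoforms kept Atp6v0a1 first on each scale, while Atp6v0a2 and Tcirg1 exchanged places after division by either transcript length. The deposited mean cannot show how a level divides between young and aged mice, nor its spread.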
